A study of Homo sapiens with 11 samples.

Results

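Cytoplasmic dynein 1 was examined as a set of 10 genes, chosen by name as the subunits of this motor, and these genes are covered by 13 of the 42405 probes of the array. DYNC1LI2, DYNLL1 and DYNLT3 have 2 probes each and the other members have 1. The RNA came from the cell lines A549 and HCC827, each derived from an adenocarcinoma of the human lung, and was measured on 11 Agilent expression arrays in 1 colour. Each line had been infected with a retrovirus, selected with G418 and kept as stable transfectants, either with the empty pMXs-Neo vector (mock) or with the same vector carrying wild-type TRIM58 with a FLAG tag (TRIM58-WT). A549 was represented by 3 mock replicates on 4 arrays and 3 TRIM58-WT replicates on 3 arrays, while HCC827 had 2 replicates of each kind. Mock arrays 1-1 and 1-2 of A549 share control cell 1 and were averaged to 1 replicate. The methods describe isolated clones, while a legend calls the HCC827 transfectants crude, and the labels say neither which clone an array holds nor whether replicates were separate cultures, so the p-values here measure the spread between these samples, which may be technical.

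Cytoplasmic dynein 1 is the motor that carries cargo toward the minus ends of microtubules, and it positions nuclei, Golgi membranes and the mitotic spindle. A dimer of heavy chains forms the motor, intermediate chains link it to dynactin, light intermediate chains bind the adaptors that choose a cargo, and 3 families of light chain dimers (LC8, roadblock and Tctex) sit on the intermediate chains. TRIM58 is a RING-type E3 ubiquitin ligase whose known partner in erythroblasts is dynein, and an effect on protein stability would not be seen in RNA. For protein, the paper describes a preliminary analysis of stable transfectants. It reports no significant change of dynein heavy or intermediate chains in TRIM58-WT cells against mock or mutant TRIM58 cells. The comparison of TRIM58-WT with mock cells asked whether the RNA of the motor's subunits differs where TRIM58 was introduced.

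Of the 13 probes, 12 passed the filter for signal above background and were tested in each comparison, and these cover 9 of the 10 genes. The probe of the remaining gene, DYNC1I1, was above background on 1 array only. By RefSeq the genes lie on 10 different chromosomes, from DYNC1I2 on chromosome 2 to DYNLT3 on the X chromosome. Levels are given as the log2 signal of a probe minus the 75th percentile of its array. A level of 0 thus lies at that percentile, and levels of different probes cannot be set against each other.

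The arrays themselves were uneven. The 75th percentile signal was 56.6 to 62.5 on A549 mock 3 and TRIM58-WT 2 and 3, 90.5 to 103 on the other A549 arrays, and 108 to 125 on the HCC827 arrays. Deviations from the group means were taken over the probes above background on every A549 array. Those of A549 mock 3 correlated with those of TRIM58-WT 2 and 3 (r = 0.63 and 0.56, across probes). Those of mock 1 and 2 correlated with those of TRIM58-WT 1 (r = 0.56 and 0.45), so values within these sets of arrays are given beside the A549 results of the dynein 1 probes. Over probes above background on both arrays compared, TRIM58-WT 2 and 3 differed from each other by an SD of 0.21. This was less than for mock arrays 1-1 and 1-2 of the same control cell (0.26). The TRIM58 probe stayed at background on each of the TRIM58-WT arrays and lay above it on A549 mock 3 alone, at -0.71. The part of the transcript it reads is not given in the sources used here, so it is no check of the labels. All 6 epithelial markers were above background on every array of A549 mock and of both HCC827 groups, and in A549 TRIM58-WT 4 of 6 were, with KRT19 above background on none. The summed epithelial level was 10.56 to 11.17 in A549 mock and 10.10 to 10.75 in A549 TRIM58-WT. Of 5 fibroblast markers, COL1A1 was above background on every A549 TRIM58-WT array and on no A549 mock array. LUM went the other way, above background on at least 1 but not all A549 mock arrays and on no A549 TRIM58-WT array. COL1A2, DCN and PDGFRB were on none of either, and the summed level was -2.10 to 0.29 in mock and -0.98 to 0.82 in TRIM58-WT. In limma 3 of the 6 epithelial markers fell and COL1A1 rose, by 4.33, in A549, and no marker passed in HCC827. The log2 changes of the 6 epithelial markers in A549 ran from -9.50 to 0.25, with a median of -1.85, a spread that the summed level does not show. Of 5 blood and endothelial markers, CD3E, PECAM1 and VWF were above background on no array, and the summed level was 1.03 to 1.71 in A549 mock and 0.71 to 1.01 in A549 TRIM58-WT. In HCC827 it was higher, at 2.13 to 2.16 in mock and 2.62 to 2.85 in TRIM58-WT. The part of these markers in the A549 values was not tested.

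Before the values, the sequences before the RefSeq start sites are shown for the paralogue pairs that differed most in their behaviour: the intermediate chains, of which only DYNC1I2 was detected throughout, and the light intermediate chains, which differed between the lines in opposite directions. Sequences and positions are those of RefSeq on GRCh38.p14, 250 bases up to the start, and capitals mark 3 motifs wherever their letters occurred on either strand. The GC box was searched as GGGCGG. The CCAAT box was searched by the letters of its name, and the TATA box as TATAAA. In the windows shown, no match overlapped another.
DYNC1I1, chr7:95772304-95772553, plus strand: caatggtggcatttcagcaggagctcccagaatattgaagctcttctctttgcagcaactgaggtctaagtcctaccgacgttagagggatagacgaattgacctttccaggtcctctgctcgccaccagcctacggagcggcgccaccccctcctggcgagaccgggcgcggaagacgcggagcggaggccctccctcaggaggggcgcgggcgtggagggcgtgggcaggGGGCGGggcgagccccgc
DYNC1I2, chr2:171687219-171687468, plus strand: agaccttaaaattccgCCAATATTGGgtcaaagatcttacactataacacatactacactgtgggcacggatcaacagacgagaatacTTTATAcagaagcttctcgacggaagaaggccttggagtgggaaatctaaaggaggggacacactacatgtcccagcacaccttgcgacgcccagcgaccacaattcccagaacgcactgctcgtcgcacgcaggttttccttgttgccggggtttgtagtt
DYNC1LI1, chr3:32570859-32571108, minus strand: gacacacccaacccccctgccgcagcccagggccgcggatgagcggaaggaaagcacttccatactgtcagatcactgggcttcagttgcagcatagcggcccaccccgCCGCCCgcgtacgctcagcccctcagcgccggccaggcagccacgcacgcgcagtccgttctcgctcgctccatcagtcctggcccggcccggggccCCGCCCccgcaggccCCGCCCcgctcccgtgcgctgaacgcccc
DYNC1LI2, chr16:66751610-66751859, minus strand: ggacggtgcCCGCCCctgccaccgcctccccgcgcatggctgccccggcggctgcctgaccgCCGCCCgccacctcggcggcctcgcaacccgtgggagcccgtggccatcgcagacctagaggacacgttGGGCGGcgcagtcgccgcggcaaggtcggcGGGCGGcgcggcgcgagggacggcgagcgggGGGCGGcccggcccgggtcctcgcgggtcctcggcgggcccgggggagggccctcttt
The table held 12 windows for 9 members and none for DYNLL2. The DYNC1LI2 window held 5 GC boxes and 40 CpG dinucleotides, and the DYNC1LI1 window 3 GC boxes and 27 CpG. The DYNC1I1 window held 1 GC box and 21 CpG. The DYNC1I2 window shown, the upstream one of 2, held 13 CpG and no GC box, with 2 CCAAT matches, on opposite strands and side by side, and the only TATA match among the 12 windows. The downstream DYNC1I2 window, not shown, differed in each motif, with 12 CpG, 1 GC box and no CCAAT or TATA match. Over all 35116 windows of the same length, 42.6% held a GC box, 32% a CCAAT box and 11% a TATA box, and the median was 11 CpG. At least 1 GC box stood in 10 of the 12 windows. These matches describe the letters of the windows, and binding was not measured.

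**Figure D1:**
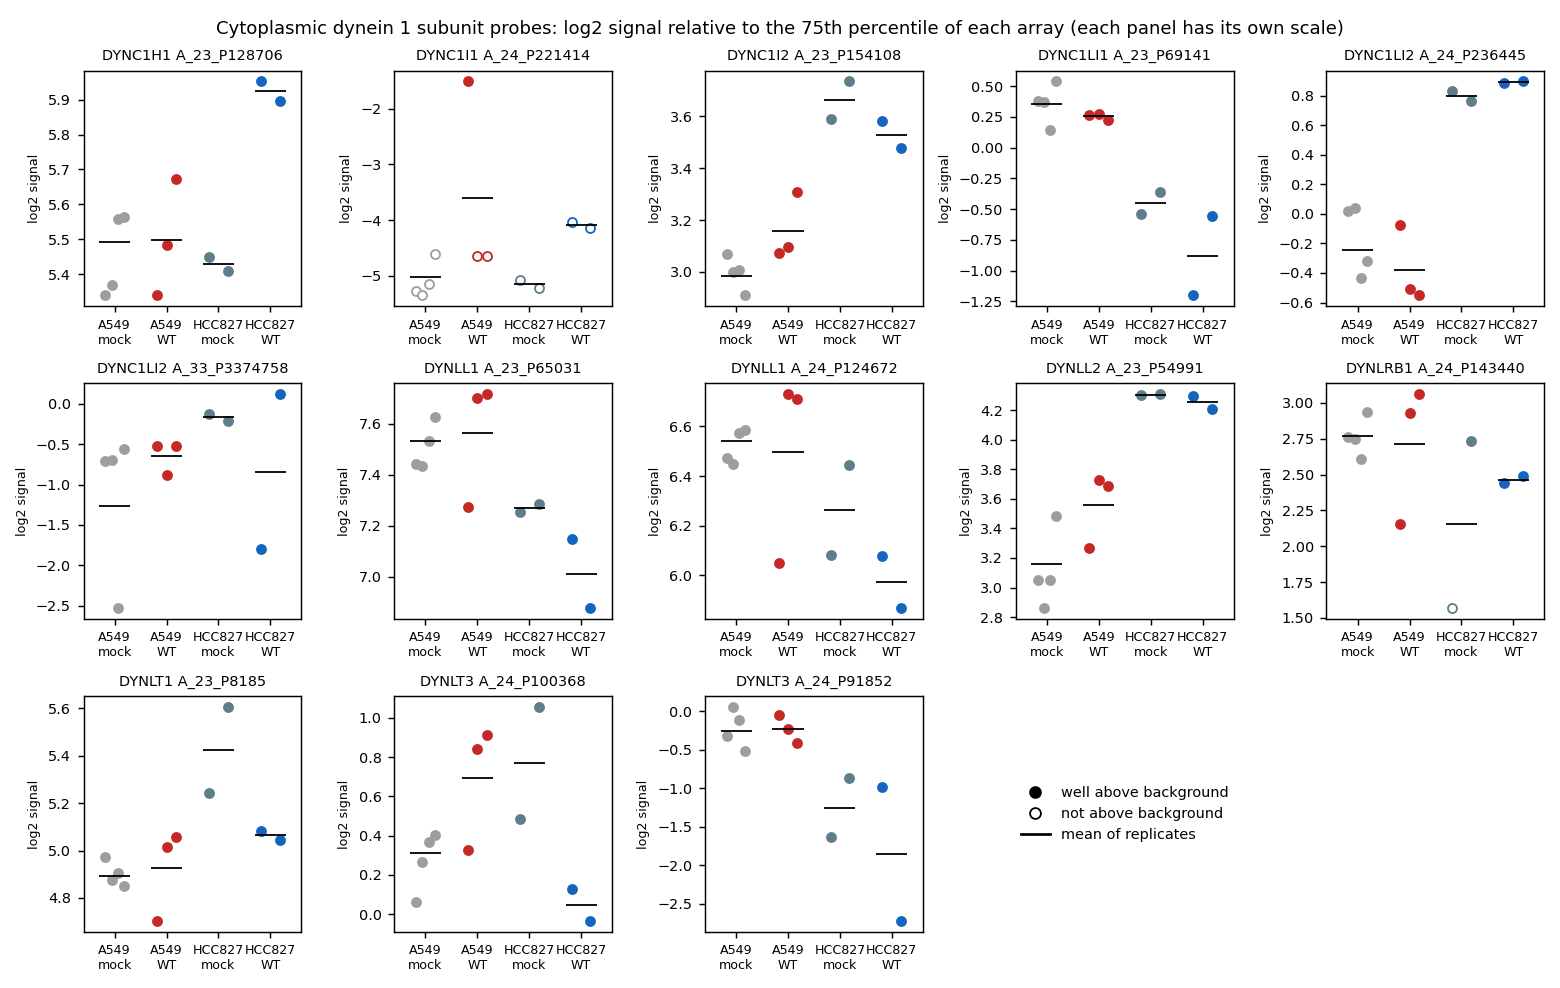
Log2 signal relative to the 75th percentile of the array (y axis, a scale of its own in each panel) for the 13 probes of dynein 1 subunits in A549 and HCC827 mock and TRIM58-WT cells (WT). Points are arrays, open where the probe was not above background, and lines are means of replicates. DYNLL2, DYNC1I2 and the first DYNC1LI2 probe sit higher in all HCC827 arrays than in all A549 arrays. DYNC1LI1 and DYNLT3 on probe A_24_P91852 sit lower in all of them. DYNC1I1 is above background on A549 TRIM58-WT 1 alone.

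In A549, none of the 12 probes passed limma at an adjusted p under 0.05, beside 9.01% of the 16923 probes tested, and 0 passed at an unadjusted p under 0.05, beside 25.3%. RNA of a whole culture cannot tell fewer expressing cells from less RNA per cell. The median change of the 12 probes was 0.028 on the log2 scale, beside 0.059 over all probes tested, and the median size of change regardless of sign was 0.075, beside 0.33. Scaling to the median of each array in place of the 75th percentile moved every A549 change by -0.37, so the signs of the small changes depend on it. Only 40.1% to 49.99% of the probes of an array were well above background, so the array median lay at about that limit or below it. TRIM58-WT and mock values did not overlap for 1 of the 12 probes, that of DYNC1I2, while 31% of all probes tested had groups that did not overlap.

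The heavy chain DYNC1H1, which carries the motor domain, had levels of 5.34, 5.37, 5.56 and 5.56 on A549 mock arrays 1-1, 1-2, 2 and 3, and of 5.34, 5.49 and 5.67 on TRIM58-WT arrays 1, 2 and 3. The groups covered almost the same range. The change was 0.0075 (95% confidence interval -0.39 to 0.41, adjusted p = 0.986).

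The intermediate chain DYNC1I2, the broadly expressed of its pair, was at 3.07, 3.00, 3.01 and 2.91 in A549 mock, in the same order of arrays, and at 3.07, 3.10 and 3.31 with TRIM58-WT. Averaged per replicate, every TRIM58-WT value lay above every mock value, by a small margin. The change of 0.17 (95% confidence interval -0.20 to 0.54, adjusted p = 0.54) did not pass. DYNC1I1, the intermediate chain known mainly from neurons, was not above background on the 4 A549 mock arrays or on TRIM58-WT 2 and 3, and stood at -1.50 on TRIM58-WT 1. The HCC827 arrays were all at background for it, and no fold is given.

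DYNC1LI1, a light intermediate chain that joins the motor to its adaptors, measured 0.38, 0.37, 0.14 and 0.54 in A549 mock and 0.26, 0.28 and 0.22 with TRIM58-WT. The TRIM58-WT values lay close together within the mock range, and the change was -0.099 (95% confidence interval -0.50 to 0.30, adjusted p = 0.761). DYNC1LI2, its paralogue, measured 0.022, 0.039, -0.44 and -0.32 in mock and -0.074, -0.51 and -0.55 with TRIM58-WT on probe A_24_P236445. These groups overlapped, with a change of -0.14 (95% confidence interval -0.65 to 0.38, adjusted p = 0.745). The other DYNC1LI2 probe, A_33_P3374758, gave -0.71, -0.69, -2.53 and -0.56 in mock and -0.52, -0.89 and -0.52 with TRIM58-WT, so 1 mock array stood far below the rest. Its change of 0.63 (adjusted p = 0.52) became -0.0069 without mock replicate 2.

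Among the LC8 light chains, small dimers that many proteins besides dynein bind, DYNLL1 measured 7.44, 7.43, 7.53 and 7.63 in A549 mock and 7.27, 7.70 and 7.72 with TRIM58-WT on probe A_23_P65031. The lowest of all 7 arrays was TRIM58-WT 1 and the highest were TRIM58-WT 2 and 3, and the other DYNLL1 probe placed the arrays the same way. Their changes were 0.031 and -0.043 (adjusted p = 0.941 and 0.931). DYNLL2 measured 3.05, 2.86, 3.05 and 3.48 in A549 mock and 3.27, 3.73 and 3.69 with TRIM58-WT, with mock 3 above TRIM58-WT 1. Of the members on their brightest probes it had the largest change, 0.40 or 1.32-fold (95% confidence interval -0.14 to 0.93, adjusted p = 0.332).

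The roadblock chain DYNLRB1 measured 2.76, 2.75, 2.61 and 2.94 in A549 mock and 2.15, 2.93 and 3.06 with TRIM58-WT. TRIM58-WT 1 lay below the other arrays, and there the 2 spots of the probe read 673 and 187 on the scanner's scale. The change was -0.052 (95% confidence interval -0.71 to 0.61, adjusted p = 0.931). Of the Tctex chains, DYNLT1 measured 4.97, 4.87, 4.90 and 4.85 in mock and 4.70, 5.02 and 5.06 with TRIM58-WT, with a change of 0.032 (95% confidence interval -0.37 to 0.43, adjusted p = 0.929). TRIM58-WT 1 was again the lowest array and TRIM58-WT 2 and 3 the highest. DYNLT3, the other Tctex chain, measured 0.063, 0.27, 0.37 and 0.40 in mock and 0.33, 0.84 and 0.91 with TRIM58-WT on probe A_24_P100368. TRIM58-WT 2 and 3 were higher than all mock arrays and TRIM58-WT 1 lay within the mock range, for a change of 0.38 (95% confidence interval -0.12 to 0.89, adjusted p = 0.323). On the other DYNLT3 probe the groups overlapped, with a change of 0.026 (adjusted p = 0.953).

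Compared within arrays of like overall signal, with no test, DYNLL2 was higher in TRIM58-WT by 0.23 on the arrays of low signal and by 0.26 on the others. DYNLT3 on probe A_24_P100368 was higher by 0.47 and 0.060, and DYNC1I2 by 0.29 and 0.051. The differences of DYNLL1 on probe A_23_P65031 were 0.083 and -0.21, those of DYNLRB1 0.057 and -0.53, and those of DYNLT1 0.19 and -0.21, with opposite signs in the sets. DYNC1H1 gave 0.015 and -0.12, and DYNC1LI1 -0.29 and 0.0026. The DYNC1LI2 probes gave -0.21 and 0.13 on A_24_P236445, and -0.14 and 1.1 on A_33_P3374758. In all, 8 of the 12 probes changed sign between the sets, and those of DYNC1I2, DYNLL2 and DYNLT3 did not. By slide, DYNLL2 was higher by 0.21 on slide 1 and 0.54 on slide 2, DYNC1I2 by 0.034 and 0.25, and DYNLT3 on probe A_24_P100368 by 0.11 and 0.54. Every other tested probe took opposite signs on the slides. Slide 2 held mock 1-2 together with the arrays of low signal, so its differences mix the sets of signal.

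**Figure D2:**
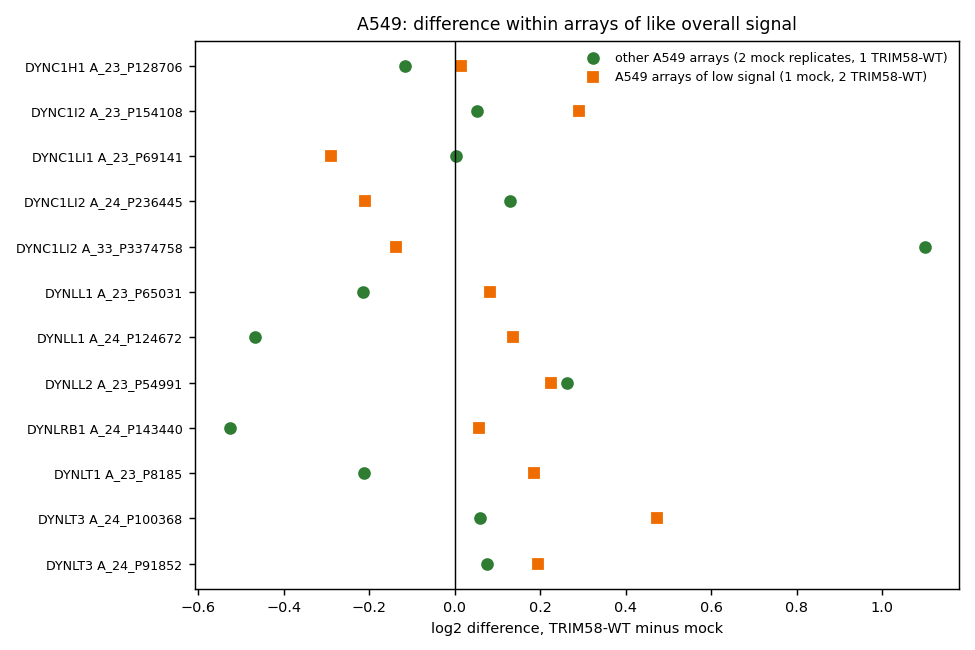
Log2 difference between TRIM58-WT and mock in A549 (x axis) for each tested dynein 1 probe, taken within the 3 arrays of low signal (squares) and within the other arrays (circles). Each point is a difference of means of 1 or 2 replicates and has no error bar. DYNLL2 gives 0.23 and 0.26, and 8 of the 12 probes change sign between the sets. DYNC1I1, at background on all but 1 array, is not drawn.

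In HCC827, 0 of the 12 probes passed limma at an adjusted p under 0.05, beside 0.884% of the 19563 probes tested, and 2 passed at an unadjusted p under 0.05, beside 20.3%. With 2 replicates a group, values of the groups did not overlap for 9 of the 12 probes, beside 56.6% of all probes tested. TRIM58-WT lay wholly below mock for 7 of the 12, beside 27% of all probes tested, and wholly above it for 2 of the 12, beside 29.6%. The 7 lower probes included both of DYNLL1. The median change of the 12 probes was -0.27, beside 0.0091 over all probes tested. With the brightest probe of each gene, the median over the 9 genes was smaller, -0.13, beside 0.0077 over all named genes.

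DYNC1H1 measured 5.45 and 5.41 in HCC827 mock replicates 1 and 2 and 5.95 and 5.90 with TRIM58-WT. The TRIM58-WT arrays were the highest of all 11 arrays for this probe, the replicates of each group lay close together, and both spots of the probe showed the same order. The difference was 0.49, or 1.41-fold (95% confidence interval 0.16 to 0.83), which passed in limma before adjustment and not after it (adjusted p = 0.151). Leaving out each replicate in turn gave 0.47 to 0.52, with adjusted p of 0.177 to 0.448.

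DYNC1I2 measured 3.59 and 3.74 in HCC827 mock and 3.58 and 3.48 with TRIM58-WT, the latter just below, and the change was -0.13 (95% confidence interval -0.50 to 0.24, adjusted p = 0.6). DYNC1LI1 measured -0.54 and -0.36 in mock and -1.20 and -0.56 with TRIM58-WT, where replicate 1 was far lower than replicate 2. Its change was -0.43 (95% confidence interval -1.12 to 0.26, adjusted p = 0.404). DYNC1LI2 measured 0.84 and 0.77 in mock and 0.88 and 0.90 with TRIM58-WT, a narrow band, with a change of 0.089 (95% confidence interval -0.25 to 0.43, adjusted p = 0.706). Its other probe measured -0.12 and -0.22 in mock and -1.80 and 0.12 with TRIM58-WT, 1 replicate of which lay far below and the other above the mock values (change -0.67, adjusted p = 0.582).

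DYNLL1 was lower in TRIM58-WT on both probes, with changes of -0.26 and -0.29, neither called (adjusted p = 0.402 and 0.43). On probe A_23_P65031 it measured 7.25 and 7.28 in mock and 7.15 and 6.88 with TRIM58-WT, without overlap. DYNLL2 measured 4.30 and 4.31 in mock and 4.29 and 4.21 with TRIM58-WT, and its change was -0.051 (95% confidence interval -0.39 to 0.29, adjusted p = 0.834). DYNLRB1 measured 1.57 and 2.74 in mock and 2.44 and 2.49 with TRIM58-WT. Here mock 1 rests on spots of 639 and 17.4, the latter not above background, and the change of 0.31 (95% confidence interval -0.80 to 1.42, adjusted p = 0.686) became -0.012 when the brighter spot of each array was used.

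DYNLT1 measured 5.24 and 5.61 in HCC827 mock and 5.08 and 5.04 with TRIM58-WT, both below the mock replicates, with a change of -0.36 (95% confidence interval -0.83 to 0.11, adjusted p = 0.329). DYNLT3 on probe A_24_P100368 measured 0.48 and 1.05 in mock and 0.13 and -0.034 with TRIM58-WT. Both TRIM58-WT values lay below both mock values, though the mock replicates lay further from each other than the lower of them lay from the nearest TRIM58-WT value. The change was -0.72, or 1.65-fold lower (95% confidence interval -1.35 to -0.091), which passed in limma before adjustment and not after it (adjusted p = 0.209). The other DYNLT3 probe measured -1.64 and -0.86 in mock and -0.98 and -2.72 with TRIM58-WT, which overlapped (change -0.60, adjusted p = 0.619).

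**Figure D3:**
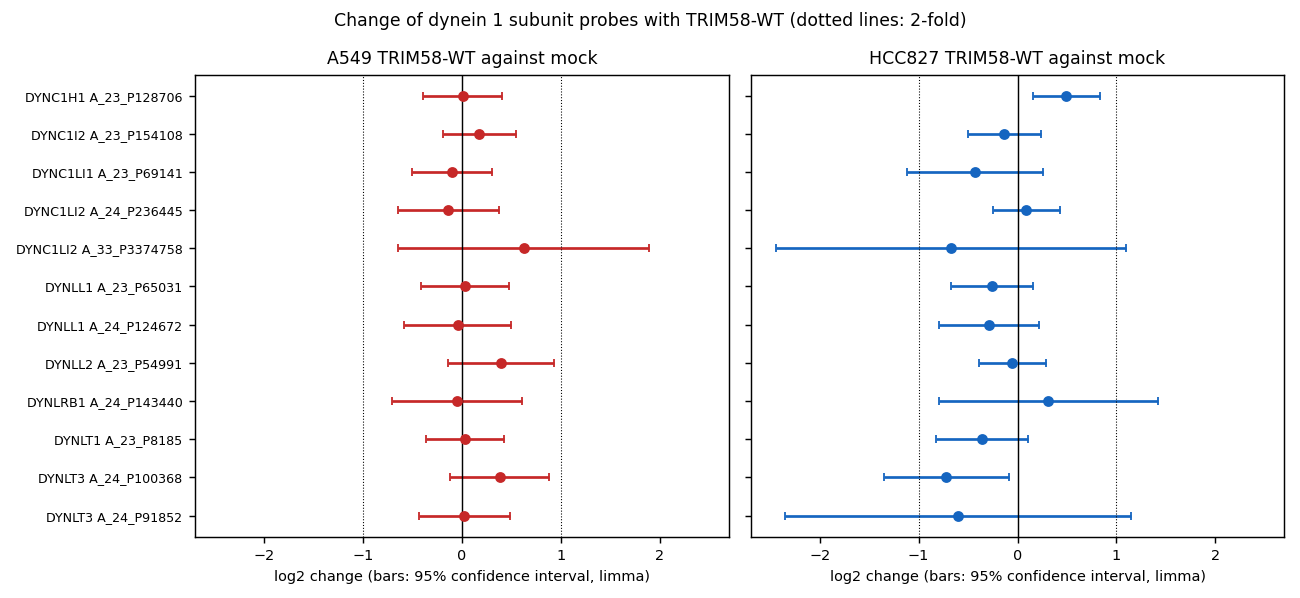
Log2 change of each tested dynein 1 probe between TRIM58-WT and mock (x axis) in A549 (left, 3 replicates a group) and HCC827 (right, 2 replicates a group), with 95% confidence intervals from limma. Dotted lines stand at a 2-fold change. No probe passed at an adjusted p under 0.05, and the intervals of DYNC1H1 and of DYNLT3 on probe A_24_P100368 in HCC827 lie clear of 0.

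Whether the change with TRIM58-WT differed between the lines was tested in a fit of all 10 replicates. None of the 12 probes passed at an adjusted p under 0.05, beside 3.86% of the 20641 probes tested, and 1 passed at an unadjusted p under 0.05, beside 18.4%. That was DYNLT3 on probe A_24_P100368, whose change in HCC827 minus that in A549 was -1.10 (95% confidence interval -1.89 to -0.32, adjusted p = 0.127) in limma. Without A549 TRIM58-WT replicate 1 the difference was -1.29 with an adjusted p of 0.0431. On the other DYNLT3 probe it was -0.63 (adjusted p = 0.661), and for DYNC1H1 0.49 (95% confidence interval -0.037 to 1.01, adjusted p = 0.306).

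The lines differed in the levels of these genes where TRIM58 had not been introduced. Between HCC827 mock and A549 mock, 5 of 12 probes passed limma at an adjusted p under 0.05, beside 43% of the 19505 probes tested. Of the 12, 4 were called higher in HCC827 and 1 lower, beside 23% and 20% of all probes tested, and 2 were called and 2-fold apart, beside 30.1% of all probes tested. The share of members called lay near that of all probes. Groups did not overlap for 10 of the 12, beside 69.7%. The median size of the difference was 0.65, beside 0.69 over all probes.

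DYNLL2 was 2.21-fold higher in HCC827, with a mean of 4.30 ± 0.0058 (SD, n = 2) against 3.16 ± 0.28 (SD, n = 3) in A549. The difference of 1.14 (95% confidence interval 0.65 to 1.63, adjusted p = 0.00296) remained between 1.04 and 1.32 over the alternatives run. DYNC1LI2 on probe A_24_P236445 was 2.06-fold higher in HCC827, at 0.80 ± 0.048 (SD, n = 2) against -0.24 ± 0.24 (SD, n = 3), a difference of 1.04 (95% confidence interval 0.57 to 1.52, adjusted p = 0.0039). Its other probe gave a like difference of 1.1 with a wide interval (-0.44 to 2.64) and did not pass (adjusted p = 0.222).

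DYNC1LI1 went the other way, 1.75-fold lower in HCC827 at -0.45 ± 0.13 (SD, n = 2) against 0.35 ± 0.20 (SD, n = 3), with a difference of -0.80 (95% confidence interval -1.30 to -0.31, adjusted p = 0.0172). DYNC1I2 was 1.6-fold higher in HCC827, at 3.66 ± 0.10 (SD, n = 2) against 2.98 ± 0.065 (SD, n = 3), with a difference of 0.68 (95% confidence interval 0.34 to 1.02, adjusted p = 0.00665). DYNLT1 was 1.45-fold higher, at 5.42 ± 0.26 (SD, n = 2) against 4.89 ± 0.038 (SD, n = 3). Its difference of 0.53 (95% confidence interval 0.13 to 0.94, adjusted p = 0.0393) had the highest adjusted p of the 5, and its call was lost when either HCC827 mock replicate or any A549 mock replicate was left out (adjusted p of 0.0504 to 0.286). DYNC1LI1 was not called without either HCC827 mock replicate (adjusted p of 0.12 and 0.0611), nor DYNC1I2 without HCC827 mock replicate 2 (0.0674).

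DYNC1H1 was not called between the lines, with a difference of -0.063 (95% confidence interval -0.43 to 0.30, adjusted p = 0.775). DYNLL1 differed by -0.26 and -0.28 on its probes, lower in HCC827, without overlap of the groups and without passing (adjusted p = 0.287 and 0.38). DYNLRB1 gave -0.61 (95% confidence interval -1.47 to 0.24, adjusted p = 0.218). The DYNLT3 probes disagreed in sign, at 0.46 on A_24_P100368 and -1.0 on A_24_P91852, and neither passed (adjusted p = 0.161 and 0.116). No direction is given for this gene.

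All HCC827 arrays lay on slide 1. Against the A549 mock arrays of that slide alone, 1-1 and 2, the differences were 1.25 for DYNLL2, 1.01 for DYNC1LI2 on probe A_24_P236445, 0.63 for DYNC1I2, 0.49 for DYNLT1 and -0.71 for DYNC1LI1, close to those of all arrays.

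The same difference between lines was taken on the TRIM58-WT arrays, which share no array with the mock comparison but the fit's estimate of spread, and there too 5 of 12 probes passed limma, beside 46% of 19811. DYNC1LI2 on probe A_24_P236445 differed by 1.27 (adjusted p = 0.00146), DYNC1LI1 by -1.13 (0.00344) and DYNLL2 by 0.69 (0.0289). These 3 probes were called in the same direction on the mock and on the TRIM58-WT arrays. The other DYNC1LI2 probe, A_33_P3374758, took the opposite sign on the TRIM58-WT arrays, at -0.20 (adjusted p = 0.824), so the direction of DYNC1LI2 there rests on 1 of its 2 probes. DYNLL1 on probe A_23_P65031, at -0.55, and DYNLT3 on probe A_24_P91852, at -1.63, were called on the TRIM58-WT arrays (adjusted p = 0.0408 and 0.0207). DYNC1I2 at 0.37 and DYNLT1 at 0.14 were not (adjusted p = 0.0741 and 0.547). A549 TRIM58-WT 2 and 3 lay on slide 2, and against TRIM58-WT 1 alone, on slide 1, the differences of the called probes were 0.96 for DYNC1LI2, -1.14 for DYNC1LI1, 0.99 for DYNLL2, -0.26 for DYNLL1 and -1.81 for DYNLT3, that of DYNLL1 being the one well under its value over all arrays.

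**Figure D4:**
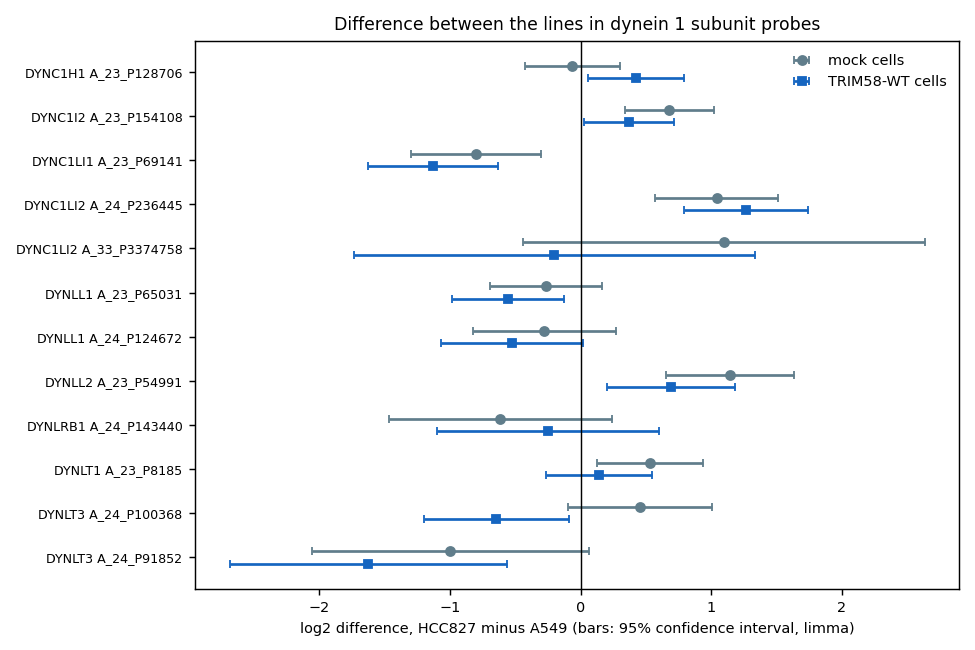
Log2 difference between HCC827 and A549 (x axis) for each tested dynein 1 probe in mock cells (circles) and in TRIM58-WT cells (squares), with 95% confidence intervals from limma. DYNC1LI2 on probe A_24_P236445 and DYNLL2 lie above 0 and DYNC1LI1 below 0 in both. The points of DYNLT3 on probe A_24_P100368, DYNC1LI2 on probe A_33_P3374758 and DYNC1H1 lie on opposite sides.

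Of the paralogue pairs, 3 could be followed within each array as the difference between their probes, whose change between samples can be read although its level cannot. DYNC1LI1 minus DYNC1LI2 was lower in HCC827 mock than in A549 mock by 1.85 on the log2 scale, the 2 HCC827 mock replicates lying at -1.38 and -1.13 and the 3 A549 ones between 0.35 and 0.86. DYNLL1 minus DYNLL2 was lower in HCC827 mock by 1.41, at 2.95 and 2.98 against 4.15 to 4.48. With TRIM58-WT, this LC8 difference moved by -0.37 in A549 and by -0.21 in HCC827. DYNLT1 minus DYNLT3, on DYNLT3 probe A_24_P100368, moved by -0.35 in A549 and by 0.36 in HCC827. That DYNLT3 probe changed by 0.38 in A549 and -0.72 in HCC827, and the other, A_24_P91852, by 0.026 and -0.60. The A549 movement of this pair thus rests on probe A_24_P100368 alone. These are descriptions with no test.

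**Figure D5:**
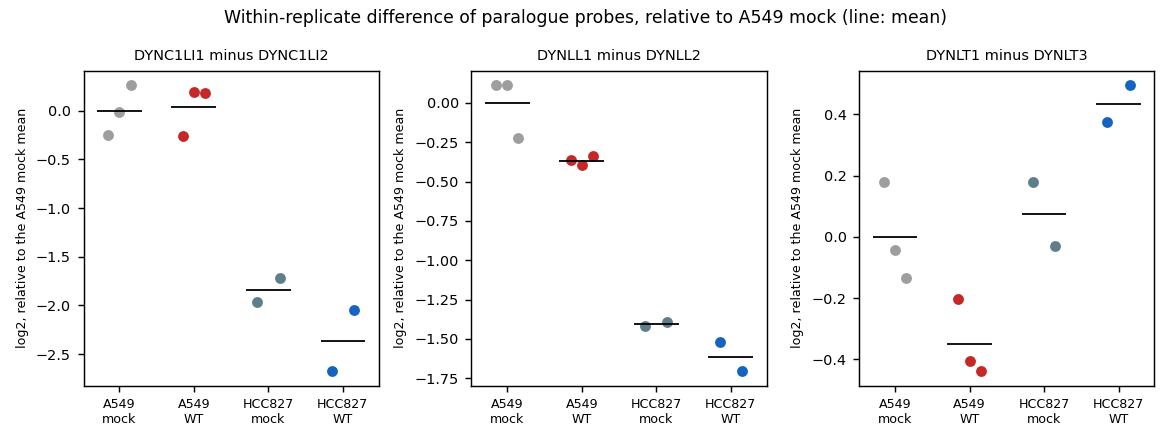
Log2 difference of the brightest probes of 3 paralogue pairs in each replicate, relative to the mean of A549 mock (y axis, a scale of its own in each panel), by line and group (WT, TRIM58-WT). Points are replicates and lines their means. The light intermediate chain and LC8 differences separate the lines by 1.85 and 1.41 between the mock groups.

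The genes around the motor were read from lists of its cofactors and relatives, 1 probe a gene. In A549, 10.5% of all 11200 named genes passed. Among the 12 subunits of dynactin, the complex that switches dynein on, 1 fell and 11 did not pass, and the one that fell was DCTN6, a small subunit of the pointed end, at -1.14 (adjusted p = 0.0124), with a mean of 2.18 ± 0.095 (SD, n = 3) in TRIM58-WT against 3.31 ± 0.15 (SD, n = 3) in mock. Of 9 anchors at the nucleus, cortex and kinetochore 1 rose, SYNE1, which encodes the nuclear envelope protein nesprin, by 1.41 (adjusted p = 0.0119), from -1.16 ± 0.28 to 0.25 ± 0.14 (SD, n = 3 each). Of 8 tested members of dynein 2 and the axonemal dyneins 1 rose, DYNC2H1, the heavy chain of the dynein of cilia, by 1.47 (adjusted p = 0.0114), from -1.78 ± 0.24 to -0.30 ± 0.22 (SD, n = 3 each). None of 13 adaptors, 4 regulators such as PAFAH1B1, or 4 kinesin-1 subunits passed in A549 in limma. Whether the calls of DCTN6, SYNE1 and DYNC2H1 hold within arrays of like signal or under the alternative settings was not tested. In HCC827 no gene of these lists passed, beside 1.1% of 12206 named genes. DCTN6 was 2.36 ± 0.18 there with TRIM58-WT and 2.80 ± 0.24 in mock (SD, n = 2 each).

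Between the mock cells of the lines, 46.6% of 12408 named genes passed. There 4 of 9 tested dynein 1 genes were higher and 1 lower in HCC827, beside 2 higher and 2 lower of 12 dynactin subunits, 1 and 1 of 4 regulators, 3 and 1 of 15 adaptors, 2 and 1 of 9 anchors, 4 and 2 of 10 genes of dynein 2 and the axonemal dyneins, and 1 and 1 of 4 kinesin-1 subunits.

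Among the 12 tested probes the widest range over the 10 replicates was that of DYNLT3 on probe A_24_P91852, 2.68, and the narrowest that of DYNC1H1, 0.61.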

How the data were processed

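RNA of 11 samples was hybridised to Agilent arrays in 1 colour. The deposited scanner files hold spot intensities that, per the file headers, Agilent Feature Extraction 11.5.1.1 had background-subtracted, while the labels name version 10.7. The authors also deposited a log2 table, which matched the log2 processed signal minus the 75th percentile of the array and a baseline per probe within 0.01 for 95.5% of values, with a largest difference of 4.93. Its direction and scale are thus those of the scanner files, and its baseline is not given in the sources used here.

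Here, outlier and control spots were left out, spots of a probe were averaged, and log2 signals were scaled by the 75th percentile of each array. 28 probe values were missing. Probes were tested where all arrays of 1 or more of the groups compared had signal well above background. A RefSeq accession stood beside 28302 of the 42405 probes and gave 27237 a gene symbol. limma 3.58.1 in R 4.3.3 compared TRIM58-WT with mock within each line, and all 4 groups were fitted for the differences between lines, with Benjamini-Hochberg adjustment over all probes tested and a threshold of 0.05. Figures were drawn in Python 3.11.15 with matplotlib 3.10.9. The scripts were tested on simulated data. The number of arrays limits the precision.

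The members and gene lists were chosen with earlier results of these data known. All members were named, and in the other lists (dynactin, regulators, adaptors, anchors, other dyneins, kinesin-1) the genes called in either line, at most 4 a list. The genes nearest in pattern to the member probe of widest range are not given, since that probe (DYNC1I1) was at background on all but 1 array. Marker lists served as checks. Replicate numbers were not used to pair the samples in the main fits. Deviations of same-numbered A549 mock and TRIM58-WT replicates correlated at 0.56 for replicates 1, -0.48 for replicates 2 and 0.56 for replicates 3. In HCC827 the same-numbered replicates correlated at 0.098. Alternatives covered normalization, background correction (normexp with an offset of 50 on the median signal), filters, slides, a replicate block and leaving out each replicate. Treating the low-signal arrays as a block, the brightest spot of a probe, the average of A549 TRIM58-WT arrays 2 and 3, and the difference between the lines on TRIM58-WT arrays were chosen after seeing the data.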

Additional observations from a re-analysis of the deposited data

How the results depend on the processing

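With TRIM58-WT, 0 of the 12 dynein 1 probes were called in A549 and 0 in HCC827 under every alternative run, the replicate block included (0 in each line). Under the replicate block, calls over all probes went from 1524 to 1173 in A549 and from 173 to 0 in HCC827. Over all alternatives these counts ranged from 36 to 3812 in A549 and from 0 to 633 in HCC827. The 36 came from Welch's t-test, which the paper names among its general statistics, while its array methods name no test. Between the mock cells of the lines, 5 probes were called, 6 with the detected-probe percentile, slide as a block or the low-signal block, 2 after a shift to the array median, 3 with no filter, 4 with A549 TRIM58-WT arrays 2 and 3 averaged, and 3 to 5 when a replicate was left out (3 without either HCC827 mock replicate). DYNLL2 and DYNC1LI2 on A_24_P236445 kept their call throughout, with adjusted p up to 0.0413 and 0.0367. DYNC1LI1 lost its call under the median shift, normexp and no filter, and DYNC1I2 under the median shift. DYNLT1 lost its call under the median shift, no filter, the average of A549 TRIM58-WT arrays 2 and 3, and 9 of 10 omissions of a replicate. The difference between lines in the change with TRIM58-WT gave 0 calls, and 1 without A549 TRIM58-WT replicate 1.

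Of 853 values of single probes under an alternative, 47 changed sign, and 0 of these were called. The cause was not tested. In A549, the median shift moved every probe by -0.37 and gave -0.36 for DYNC1H1, -0.19 for DYNC1I2, -0.34 for DYNLL1 on A_23_P65031, -0.34 for DYNLT1 and -0.34 for DYNLT3 on A_24_P91852. normexp gave -0.098 for DYNC1H1, -0.014 for DYNC1I2, 0.044 for DYNC1LI1, -0.11 for DYNLL1 and -0.075 for DYNLT1. The low-signal block gave -0.050, -0.066 and -0.013 for DYNC1H1, DYNLL1 and DYNLT1, and the average of TRIM58-WT arrays 2 and 3 gave -0.032, -0.042 and -0.023. The brightest spot gave -0.0074 for DYNC1H1, -0.029 for DYNLT1 and 0.13 for DYNLRB1. DYNC1H1 was -0.0019 with the percentile of probes detected on all arrays, and DYNLT3 on A_24_P91852 was -0.0032 with 4 mock arrays counted separately and -0.038 with mock array 1-2 alone. In HCC827, DYNLRB1 was -0.012 on the brightest spot, and normexp gave 0.015 for DYNC1I2 and -0.098 for DYNC1LI2 on A_24_P236445. Between the lines DYNC1H1 was 0.011 with the detected-probe percentile, 0.060 with normexp, 0.12 with quantile normalization and 0.024 with slide as a block.

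Leaving out each replicate in A549 gave -0.080 to 0.087 for DYNC1H1, -0.29 to 0.00058 and -0.0069 to 0.98 for the DYNC1LI2 probes, -0.046 to 0.18 and -0.16 to 0.18 for the DYNLL1 probes, -0.23 to 0.23 for DYNLRB1, -0.033 to 0.14 for DYNLT1 and -0.10 to 0.12 for DYNLT3 on A_24_P91852. In HCC827 it gave -0.27 to 0.90 for DYNLRB1, -1.63 to 0.29 for DYNC1LI2 on A_33_P3374758 and -1.47 to 0.27 for DYNLT3 on A_24_P91852, whose difference between lines ran from -1.50 to 0.24.

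The intervals rest on 2 HCC827 replicates and 3 A549 replicates a group, and a p that misses the threshold does not show that the groups are alike. RefSeq lists pseudogenes of DYNLL1, DYNC1LI1, DYNC1I2 and DYNLT3, and whether the probes also bind their transcripts was not tested. RNA levels do not report the amount of protein.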
